A study of Mus musculus with 11 samples.

Results

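A set of 10 genes of the bone morphogenetic protein (BMP) pathway was followed in mouse naive extra-embryonic endoderm (nEnd), and its members were listed by name. The 10 genes are the ligands Bmp2, Bmp4, Bmp7, Bmp8a and Bmp8b, the target genes Id1, Id2 and Id3, and the inhibitory SMADs Smad6 and Smad7. All 10 were found among the 48952 genes of the bulk table and among the 32285 genes of the single-cell tables, and all 10 passed the filter on low counts in the bulk libraries.

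BMP ligands are secreted dimers that bring type I and type II serine/threonine kinase receptors together on the receiving cell. The active receptors phosphorylate SMAD1, SMAD5 and SMAD9, which enter the nucleus with SMAD4 and switch on the ID genes. ID proteins lack a DNA-binding domain and hold E proteins in complexes that cannot bind DNA, while SMAD6 and SMAD7 are targets of the pathway that feed back to block its receptors and SMADs. In the mouse embryo Bmp4 is a ligand of the epiblast and the extra-embryonic ectoderm, Bmp2 is a ligand of the visceral endoderm, and BMP4 added to mouse ES cells can act against neural differentiation through the ID genes.

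The bulk part holds sorted cells of an nEnd line that carries an OCT4-mCherry protein reporter and was stained for PDGFRA, with 3 libraries each of Pdgfra+ cells (PDGFRA without the reporter, held by the study to be committed endoderm), DP cells (positive for both) and Oct4+ cells (reporter only, de-differentiated and like the epiblast). All were cultured in RACL, which supplies Activin A, CHIR99021 and LIF, on mouse feeder fibroblasts. The single-cell part holds 2 droplet libraries of Oct4LOF nEnd (line EPUc), in which both copies of Oct4 (gene symbol Pou5f1) can be removed by 4-hydroxytamoxifen (4OHT). PDGFRA-positive Oct4LOF cells were cultured without 4OHT (-4OHT) or with it (+4OHT), 1 library each, and sorted only against dead cells before capture. Each experiment used a single line. The study calls the 3 libraries of a population biological replicates, without saying whether they were separate cultures or separate sorts of 1 culture, and p-values measure the spread between these libraries.

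The 9 bulk libraries held between 8019631 and 11642571 counted reads each. Levels below are CPM (reads scaled to a common library size after TMM scaling). Mean levels in Pdgfra+, DP and Oct4+ were 17.5, 229 and 981 CPM for Pou5f1 and 729, 590 and 7.43 CPM for Pdgfra. The 12 endoderm markers summed to 51462 to 65565 CPM in Pdgfra+, 37207 to 55878 CPM in DP and 405 to 885 CPM in Oct4+. The 10 epiblast markers summed to 146 to 245, 688 to 1079 and 3904 to 5550 CPM in the same order. A list of 10 fibroblast markers summed to 4.28 to 16.2 CPM in Pdgfra+, 7.97 to 10.6 CPM in DP and 12.7 to 159 CPM in Oct4+, where the highest value belonged to replicate 1, and none of the 10 was at 0 in a whole population. In bulk libraries of sorted cells, fewer cells of a type and less RNA per cell cannot be told apart.

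Of the 10 genes, 3 passed the test in DP against Pdgfra+, 8 in DP against Oct4+ and 4 in Oct4+ against Pdgfra+ (edgeR adjusted p below 0.05). Of all genes, 6.87% passed in DP against Pdgfra+, 56.2% in DP against Oct4+ and 63.2% in Oct4+ against Pdgfra+. Bmp7, in the counts of 8 and 4, passed the filter on low counts only through Oct4+, so its calls are a description. Bmp2 was high in both PDGFRA-positive populations and low in Oct4+. Bmp4 and Bmp7 were high in Oct4+ and low in the PDGFRA-positive cells. Bmp8a was highest, and Id3 lowest, in DP. Smad7 was lowest in Pdgfra+, higher in DP and highest in Oct4+. Id1 and Id2 did not pass the test between any pair of populations, and Bmp8b and Smad6 passed it only between DP and Oct4+.

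Promoters are shown for Bmp8a and Bmp8b, whose means were highest in DP, and for Id3 and Smad6, whose means were lowest there. Of these, Bmp8b and Smad6 were not called between DP and Pdgfra+ (edgeR adjusted p = 0.105 and 0.190). Sequences run from 250 bases before to 50 bases after the RefSeq start site (GRCm38.p6), 5′ to 3′ on the strand of the gene. Capitals mark GGCGCC and GGAGCC, GC-rich forms of the motif that SMAD1 and SMAD5 can bind, on either strand. Promoters of 6 of the 10 genes were searched. Smad7 was left out of the search, and no entry was matched for Bmp2, Bmp7 and Id1, so all of these are named only.
Bmp8a, chr4:123343203-123343502, minus strand: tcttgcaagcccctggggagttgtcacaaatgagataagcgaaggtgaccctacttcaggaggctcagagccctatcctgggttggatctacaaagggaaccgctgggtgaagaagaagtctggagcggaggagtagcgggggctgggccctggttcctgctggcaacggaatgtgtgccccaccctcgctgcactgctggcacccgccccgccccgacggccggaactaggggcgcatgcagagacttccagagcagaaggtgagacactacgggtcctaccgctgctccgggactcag
Bmp8b, chr4:123104911-123105210, plus strand: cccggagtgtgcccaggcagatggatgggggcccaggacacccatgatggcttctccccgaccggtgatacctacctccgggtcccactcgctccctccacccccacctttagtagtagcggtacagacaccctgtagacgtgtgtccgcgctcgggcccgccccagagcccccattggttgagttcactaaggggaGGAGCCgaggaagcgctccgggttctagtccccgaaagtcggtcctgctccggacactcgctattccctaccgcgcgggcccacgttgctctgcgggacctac
Id3, chr4:136143572-136143871, plus strand: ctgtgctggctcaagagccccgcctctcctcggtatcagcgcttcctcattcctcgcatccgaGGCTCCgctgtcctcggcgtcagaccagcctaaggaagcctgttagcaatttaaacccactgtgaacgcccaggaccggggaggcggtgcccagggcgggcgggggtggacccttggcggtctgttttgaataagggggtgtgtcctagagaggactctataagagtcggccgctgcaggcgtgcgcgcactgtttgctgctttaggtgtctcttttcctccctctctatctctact
Smad6, chr9:64022010-64022309, minus strand: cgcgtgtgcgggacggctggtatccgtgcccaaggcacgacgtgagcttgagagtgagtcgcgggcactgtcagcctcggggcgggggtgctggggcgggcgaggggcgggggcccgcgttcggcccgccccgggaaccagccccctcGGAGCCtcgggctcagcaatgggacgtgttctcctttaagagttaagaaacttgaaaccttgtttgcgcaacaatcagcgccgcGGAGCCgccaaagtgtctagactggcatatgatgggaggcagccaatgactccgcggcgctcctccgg

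GGAGCC was found 2 times in Smad6, 1 time each in Id3 and Bmp8b, and not in Bmp8a, which stands without capitals. Among the 6 promoters 5 held it, the others being Bmp4 and Id2, against 30.8% of 32851 promoters of the same length. GGCGCC was found only in Id2 of the 6, and in 11.9% of all promoters. The short element GTCT was in all 6 and in 88.0% of all promoters. The GC content of the 6 promoters was 60% to 66.3%, against a median of 52.7% over all, and a motif match is a description of the letters, not of binding. Without an offset, 28.7% of positions matched between the Bmp8a and Bmp8b promoters.

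**Figure D1:**
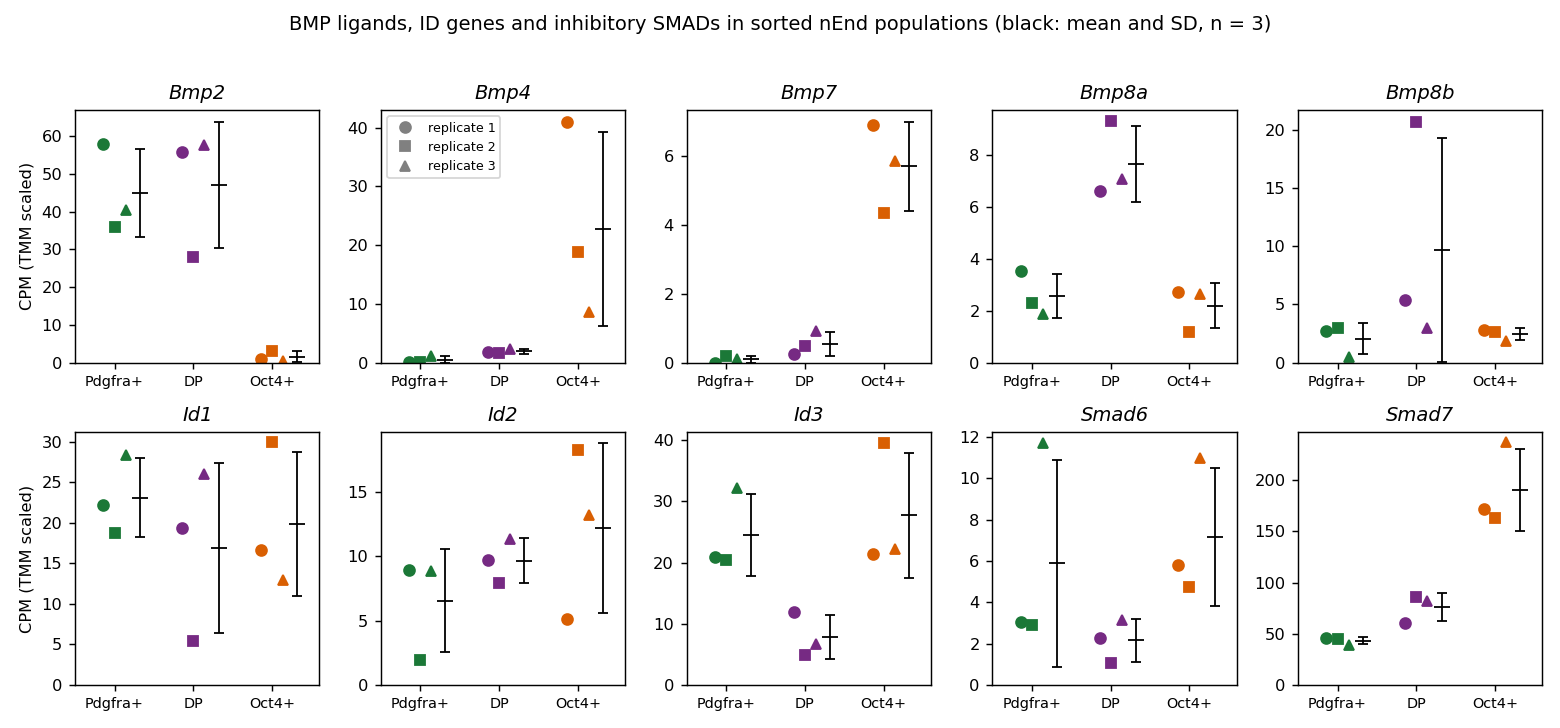
CPM of each of the 10 genes in the 9 sorted libraries, with 1 panel per gene, a linear axis from 0 that differs between panels, a marker shape per replicate number, and the mean and SD of 3 libraries in black (bars end at 0). The Oct4+ libraries stand apart from the others for Bmp2, Bmp4, Bmp7 and Smad7, and the DP libraries stand apart from both others for Bmp8a and Id3.

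Bmp2 (chromosome 2, 133552159 to 133562885, plus strand, GRCm38) had the highest level per exon length among the 5 ligands in both PDGFRA-positive populations. It stood at 58.0, 36.0 and 40.4 CPM in Pdgfra+ replicates 1 to 3, at 55.7, 27.8 and 57.5 CPM in DP and at 1.09, 3.15 and 0.443 CPM in Oct4+. The PDGFRA-positive populations overlapped, and every Oct4+ library lay below all 6 of them. By edgeR's quasi-likelihood test, Bmp2 was 29.8-fold higher in DP than in Oct4+ (log2 fold change 4.90, SE 0.54, edgeR adjusted p = 5.72e-05) and 28.4-fold lower in Oct4+ than in Pdgfra+ (log2 fold change -4.83, SE 0.54, edgeR adjusted p = 4.41e-05). Between DP and Pdgfra+ the log2 difference was 0.07 (SE 0.43, edgeR adjusted p = 0.932).

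Bmp4 (chromosome 14, 46383520 to 46390669, minus strand, GRCm38) had the opposite distribution. Its levels were 0.122, 0.199 and 1.15 CPM in Pdgfra+, 1.75, 1.65 and 2.35 CPM in DP and 40.9, 18.8 and 8.65 CPM in Oct4+. No libraries of different populations overlapped, and within Oct4+ replicate 1 was the highest and replicate 3 the lowest. Bmp4 was 44.6-fold higher in Oct4+ than in Pdgfra+ (log2 5.48, SE 0.77, edgeR adjusted p = 0.000181) and 11.9-fold lower in DP than in Oct4+ (log2 -3.57, SE 0.67, edgeR adjusted p = 0.00134). Between DP and Pdgfra+ the difference of 1.91 (SE 0.81) missed the threshold (edgeR adjusted p = 0.175). The Oct4+ library with the most Bmp4, replicate 1, also held the largest sum of fibroblast markers (159 CPM against 25.0 and 12.7 CPM) and the smallest sum of markers of two-cell-like cells (264 against 542 and 895 CPM). Without that library Bmp4 still differed between DP and Oct4+, by -2.82 (edgeR adjusted p = 0.00607), and whether either marker list plays a part in the spread was not tested. The antisense gene models Gm15217 and Gm15222 overlap Bmp4, and whether the counts used strand is not given in the sources used here.

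Bmp7, a ligand that can pair with BMP2 or BMP4, had the lowest level per exon length of the 5 ligands in Pdgfra+. It had 0, 2 and 1 reads in Pdgfra+ (0, 0.199 and 0.104 CPM), and stood at 0.249, 0.472 and 0.915 CPM in DP and 6.90, 4.34 and 5.87 CPM in Oct4+. It passed the filter only through Oct4+. On summed reads, Oct4+ held 53.8 times the Pdgfra+ level (186 against 3 reads, exact 95% interval 18.1 to 263, counting error only) and DP held 4.99 times that level (13 against 3 reads, interval 1.37 to 27.3). Its calls in both comparisons with Oct4+ are therefore given as a description, since the filter already asked for a level that Bmp7 had in Oct4+ alone, and in DP against Pdgfra+ it was not called (edgeR adjusted p = 0.122).

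Bmp8a and Bmp8b are neighbouring copies on chromosome 4 that encode closely related ligands, known from germ cell formation in the embryo. Bmp8a (chromosome 4, 123312645 to 123343252, minus strand, GRCm38) stood at 3.54, 2.29 and 1.88 CPM in Pdgfra+, at 6.61, 9.32 and 7.06 CPM in DP and at 2.71, 1.18 and 2.66 CPM in Oct4+. All 3 DP libraries lay above all 6 others. Bmp8a was 2.99-fold higher in DP than in Pdgfra+ (log2 fold change 1.58, SE 0.41, edgeR adjusted p = 0.0472) and 3.49-fold higher in DP than in Oct4+ (log2 fold change 1.80, SE 0.41, edgeR adjusted p = 0.00381), and between Oct4+ and Pdgfra+ it differed by -0.22 (SE 0.41, edgeR adjusted p = 0.655).

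Bmp8b (chromosome 4, 123105165 to 123132099, plus strand, GRCm38) stood at 2.69, 2.99 and 0.522 CPM in Pdgfra+, at 5.36, 20.7 and 3.01 CPM in DP and at 2.79, 2.66 and 1.88 CPM in Oct4+. The DP libraries again lay above all others, but replicate 2 alone carried most of the difference. Bmp8b was called in DP against Oct4+ (log2 fold change 1.98, SE 0.74, edgeR adjusted p = 0.0431). Without DP replicate 2 the difference was 0.79 (edgeR adjusted p = 0.314), and the call was also lost without Pdgfra+ replicate 1 or without any one of the Oct4+ replicates. Against Pdgfra+ the log2 difference was 2.23 (SE 0.76, edgeR adjusted p = 0.105), and without DP replicate 2 it was 1.02. DP replicate 2 also held the largest sums of trophectoderm markers among the DP libraries (47.0 CPM against 39.5 and 40.6 CPM) and of two-cell-like markers (18.4 CPM against 5.24 and 5.62 CPM). Most of its trophectoderm sum was Eomes (33.4 CPM against 23.3 and 26.0 CPM). Elf5, Krt7, Hand1 and Tfap2c were also highest in it, at 0.590 to 3.19 CPM. Cdx2 (4.25 CPM against 6.36 and 5.10 CPM) and Plac1 (1.42 CPM against 4.61 and 4.97 CPM) were lowest in it, and Gata3 lay between. The part of these markers in the result was not tested. Of the distinct 50-base stretches of the annotated transcripts, 8.74% of those of Bmp8a and 5.50% of those of Bmp8b occurred in both genes, and Oxct2a and Oxct2b overlap Bmp8a and Bmp8b on the same strand, so that the split of reads between these genes is uncertain. Gm17244 and Ppie overlap Bmp8b on the opposite strand.

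Of the ID genes only Id3 passed the test. Id1 (chromosome 2, 152736251 to 152737410, plus strand, GRCm38) stood at 22.2, 18.7 and 28.4 CPM in Pdgfra+, at 19.3, 5.43 and 26.0 CPM in DP and at 16.7, 30.0 and 13 CPM in Oct4+. Id2 (chromosome 12, 25093799 to 25097140, minus strand, GRCm38) stood at 8.91, 1.89 and 8.87 CPM in Pdgfra+, at 9.72, 7.91 and 11.4 CPM in DP and at 5.12, 18.2 and 13.2 CPM in Oct4+. For both genes the populations overlapped, and the edgeR adjusted p lay between 0.570 and 0.713 in the comparisons of Id1 and Id2 with one exception, Id2 in Oct4+ against Pdgfra+, at a log2 difference of 0.89 (SE 0.57, edgeR adjusted p = 0.194).

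Id3 (chromosome 4, 136143497 to 136145755, plus strand, GRCm38) was the ID gene that differed in DP. It stood at 20.9, 20.4 and 32.3 CPM in Pdgfra+, at 11.8, 4.84 and 6.67 CPM in DP and at 21.4, 39.5 and 22.3 CPM in Oct4+. Every DP library lay below all 6 other libraries, while Pdgfra+ and Oct4+ overlapped. Id3 was 3.15-fold lower in DP than in Pdgfra+ (log2 fold change -1.66, SE 0.38, edgeR adjusted p = 0.0340) and 3.56-fold lower in DP than in Oct4+ (log2 fold change -1.83, SE 0.38, edgeR adjusted p = 0.00222). Between Oct4+ and Pdgfra+ it differed by 0.18 (SE 0.35, edgeR adjusted p = 0.682).

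Smad6, which encodes the inhibitory SMAD that acts mainly on BMP signals, had its lowest mean in DP too, at lower counts (chromosome 9, 63953076 to 64022059, minus strand, GRCm38). It stood at 3.05, 2.89 and 11.7 CPM in Pdgfra+, at 2.24, 1.06 and 3.14 CPM in DP and at 5.81, 4.73 and 11 CPM in Oct4+. The DP libraries lay below the Oct4+ libraries and overlapped with those of Pdgfra+. Smad6 was called lower in DP than in Oct4+ (log2 fold change -1.74, SE 0.64, edgeR adjusted p = 0.0406), a call that was lost without DP replicates 1 or 2 or without Oct4+ replicates 1 or 3 (edgeR adjusted p = 0.0589 to 0.132). Against Pdgfra+ the difference was -1.46 (SE 0.64, edgeR adjusted p = 0.190), and it was -0.47 without Pdgfra+ replicate 3.

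Smad7, the inhibitory SMAD that acts on both BMP and TGF-beta or Activin signals, was the only one of the 10 genes to pass the test between all 3 pairs of populations. It stood at 45.7, 44.7 and 39.2 CPM in Pdgfra+, at 60.6, 85.4 and 82.1 CPM in DP and at 172, 163 and 237 CPM in Oct4+. The ranges of the 3 populations did not overlap, and DP lay between the others. Smad7 was 1.76-fold higher in DP than in Pdgfra+ (log2 fold change 0.82, SE 0.18, edgeR adjusted p = 0.0338), 2.51-fold lower in DP than in Oct4+ (log2 fold change -1.33, SE 0.18, edgeR adjusted p = 0.000222) and 4.41-fold higher in Oct4+ than in Pdgfra+ (log2 fold change 2.14, SE 0.19, edgeR adjusted p = 1.15e-05).

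Levels per exon length put the genes on 1 scale. In Pdgfra+ the highest RPKM (CPM per kilobase of exon) among the ligands was that of Bmp2, at 12.6 ± 3.28 (SD, n = 3), against 1.07 ± 0.360 for Bmp8a and 0.0252 ± 0.0248 for Bmp7. In Oct4+ it was that of Bmp4, at 10.1 ± 7.34 RPKM, against 1.42 ± 0.321 for Bmp7 and 0.439 ± 0.399 for Bmp2. In DP Bmp2 stood at 13.2 ± 4.68 RPKM and Bmp8a at 3.19 ± 0.605 RPKM. Among the targets in DP, Smad7 reached 16.8 ± 2.98 RPKM, Id1 14.6 ± 9.05 RPKM, Id3 4.35 ± 2.03 RPKM and Id2 3.97 ± 0.711 RPKM. Exon lengths came from GENCODE and may differ from those behind the counts.

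**Figure D2:**
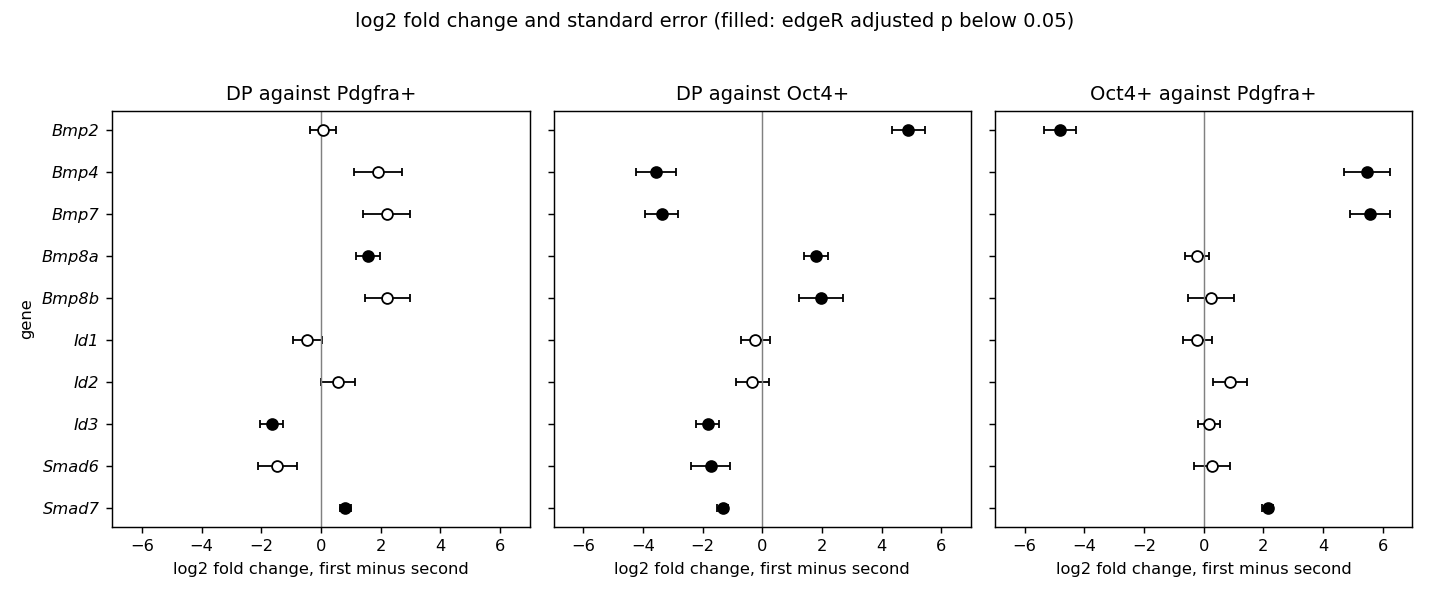
log2 fold change of each of the 10 genes in the 3 comparisons of sorted populations, with the standard error (derived from the F statistic of the test) as a bar and filled symbols where the edgeR adjusted p was below 0.05. In DP against Pdgfra+ the filled symbols are Bmp8a, Id3 and Smad7, and in Oct4+ against Pdgfra+ they are Bmp2, Bmp4, Bmp7 and Smad7.

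A gene was called at a Benjamini-Hochberg adjusted p below 0.05 over all 14185 genes tested. In DP against Pdgfra+, 3 of the 10 genes were called, 2 higher (Bmp8a and Smad7) and 1 lower (Id3), where 6.87% of all genes were called. The median log2 fold change was 0.69 over the 10 genes and 0.02 over all genes. In DP against Oct4+, 8 of the 10 were called, with Bmp2, Bmp8a and Bmp8b higher and Bmp4, Bmp7, Id3, Smad6 and Smad7 lower, where 56.2% of all genes were called. In Oct4+ against Pdgfra+, 4 of the 10 were called, with Bmp4, Bmp7 and Smad7 higher and Bmp2 lower, which is fewer in share than the 63.2% of all genes. Bmp7, which passed the filter through Oct4+ alone, is in the counts of 8 and 4, and without it they are 7 and 3 of 9. The medians were -0.83 against -0.04 and 0.27 against 0.01 in these comparisons. Each pair of comparisons shares 1 population, so that their calls are not independent.

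The calls in DP against Pdgfra+ were lost when most of the Pdgfra+ and DP libraries were left out singly. Without any one of the 3 Pdgfra+ libraries, DP replicate 2 or DP replicate 3, none of the 10 genes was called, at an edgeR adjusted p of 0.0575 to 0.124 for Id3, 0.0682 to 0.132 for Smad7 and 0.0646 to 0.164 for Bmp8a, and the share of all genes called fell to between 0.412% and 3.37%. Without DP replicate 1 or Oct4+ replicate 1 only Bmp8a of the 3 calls was lost. Over all 9 libraries left out in turn the log2 fold changes stayed at -2.09 to -1.40 for Id3, 0.72 to 0.96 for Smad7 and 1.40 to 1.87 for Bmp8a. The replicate numbers pair DP with Pdgfra+. With the replicate block, the edgeR adjusted p of Bmp8a was 0.0527 over all 9 libraries and 0.0248 over the 6 compared, and Bmp8b was called over the 6 (log2 fold change 2.10, edgeR adjusted p = 0.025).

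Other genes of the pathway were counted from a list of 57, of which 41 were tested. In DP against Pdgfra+ only 2 of the 41 were called (4.88%), the ligand Gdf3 as higher (log2 fold change 3.47, SE 0.66, edgeR adjusted p = 0.0203) and the signal transducer Smad5 as lower (log2 fold change -0.65, SE 0.15, edgeR adjusted p = 0.0336). Gdf3 had 5 summed reads in Pdgfra+, and Smad5 means were 59.7 ± 4.20, 37.9 ± 5.30 and 57.5 ± 4.92 CPM (SD, n = 3) over Pdgfra+, DP and Oct4+. Its 3 DP libraries (42.9, 32.3 and 38.6 CPM) lay below all 6 others, as those of Id3 did. In DP against Oct4+ 14 of the 41 were higher and 11 lower (61.0%), and in Oct4+ against Pdgfra+ 9 were higher and 17 lower (63.4%), where 56.2% and 63.2% of all genes were called. Both sets of calls hold Acvrl1 and Hjv, which passed the filter on low counts through Oct4+ alone. Nbl1, whose pass rested on DP, is in both sets too. Gata3, whose pass rested on DP and Oct4+, is in the second. The calls of these genes are a description.

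Of the other ligands, 3 were tested, and all 3 were called in both comparisons with Oct4+, where 56.2% and 63.2% of all genes were called. Gdf3 stood at 0.174 ± 0.204, 2.12 ± 0.778 and 53.2 ± 14.2 CPM in Pdgfra+, DP and Oct4+, and Gdf6 was lower in Oct4+ than in Pdgfra+ (log2 fold change -4.15, SE 0.61, edgeR adjusted p = 0.000244). Bmp6 stood at 11.8 ± 3.89, 32.5 ± 10.6 and 3.62 ± 1.92 CPM and was lower in Oct4+ in both comparisons with that population.

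Of 9 secreted antagonists and modulators tested, 6 were lower and 1 was higher in Oct4+ than in Pdgfra+ (77.8% called), where 63.2% of all genes were called and 4464 of 14185 were lower. Nog, which binds BMP ligands and keeps them from their receptors, stood at 38.5, 12.8 and 23.0 CPM in Pdgfra+, at 14.7, 3.30 and 3.27 CPM in DP and at 0.233, 0.296 and 0.111 CPM in Oct4+. Fst, which binds Activin and some BMPs, stood at 390 ± 166 CPM in Pdgfra+, at 230, 29.7 and 109 CPM in DP and at 8.95 ± 10.8 CPM in Oct4+. Bmper, a BMP-binding modulator, stood at 43.9 ± 29.1, 85.9 ± 40.6 and 1.04 ± 0.359 CPM in Pdgfra+, DP and Oct4+, and Bmp1, a protease that cleaves the antagonist chordin, was also lower in Oct4+ (log2 fold change -4.30, SE 0.43, edgeR adjusted p = 2.18e-05). Fstl1, named after its values were seen, was the 1 that was higher, at 44.0 ± 26.3 CPM in Pdgfra+ and 159 ± 65.2 CPM in Oct4+ (log2 fold change 1.85, SE 0.44, edgeR adjusted p = 0.00421). In DP against Pdgfra+ neither Nog (-1.80, SE 0.60, edgeR adjusted p = 0.0995) nor Fst (-1.66, SE 0.82, edgeR adjusted p = 0.236) was called.

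Of 10 receptors tested, 4 were lower and 2 higher in Oct4+ than in Pdgfra+ (60% called), where 63.2% of all genes were called. The type II receptor Bmpr2 (log2 fold change -2.48, SE 0.20, edgeR adjusted p = 7.55e-06) and the type I receptor Acvr1 (-1.59, SE 0.31, edgeR adjusted p = 0.00124) were lower in Oct4+. So were Bmpr1a (-0.99, SE 0.13, edgeR adjusted p = 0.000106) and Acvr2a (-0.64, SE 0.15, edgeR adjusted p = 0.00426). The 2 higher ones, the type I receptor Acvrl1 and the BMP co-receptor Hjv, passed the filter through Oct4+ alone, so their calls are no support. Acvrl1 had 123 summed reads in Oct4+ against 3, a ratio of 35.6 (interval 11.9 to 175). Hjv had 103 summed reads in Oct4+ and 0 in Pdgfra+, which makes it at least 29.8-fold higher in Oct4+ with a floor of 3 reads over the group. Bambi, a pseudoreceptor that dampens the pathway, was higher in Oct4+ (2.00, SE 0.37, edgeR adjusted p = 0.00103), and Smurf1, an E3 ligase for SMAD1 and SMAD5, was lower (-1.22, SE 0.14, edgeR adjusted p = 5.67e-05), as was Smurf2 (-0.45, SE 0.12, edgeR adjusted p = 0.00640). Ski, which holds back SMAD transcription, was lower in DP than in Oct4+ (-0.61, SE 0.13, edgeR adjusted p = 0.00256). Of the transducers, Smad1 was higher in Oct4+ (1.0, SE 0.24, edgeR adjusted p = 0.00429) and Smad4 lower (-0.43, SE 0.13, edgeR adjusted p = 0.0126).

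Among the other targets, the fourth ID gene Id4 was higher in Oct4+ than in Pdgfra+ (2.15, SE 0.75, edgeR adjusted p = 0.0281), and Msx2 was lower (-2.25, SE 0.32, edgeR adjusted p = 0.000195). Gata3 was called higher in Oct4+ (2.61, SE 0.83, edgeR adjusted p = 0.0185). It passed the filter on 3 libraries of DP and Oct4+, so its call is a description. Its Oct4+ libraries (0.465, 2.56 and 4.43 CPM) overlapped with those of Pdgfra+ (0.122, 0.498 and 0.522 CPM). Of the E proteins that ID proteins bind, Tcf4 was higher in Oct4+ (2.29, SE 0.36, edgeR adjusted p = 0.000346) and Tcf12 lower (-1.62, SE 0.29, edgeR adjusted p = 0.000744). Tcf3 was lower in DP than in Oct4+ (-0.78, SE 0.14, edgeR adjusted p = 0.00112), and none of these 3 was called in DP against Pdgfra+ (edgeR adjusted p = 0.0645 to 0.651).

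The genes closest to each of the 10 were found by Pearson's r of log2 CPM over the 9 libraries, which form 3 populations and hence favour genes of the same population. For Bmp2 they were Cyp27a1, Zfp458 and Prss8 (r = 0.996 to 0.997), for Bmp4 Pot1a, Stag3 and Tenm4 (0.981 to 0.985), for Bmp7 Car3, Wdr5 and Hormad1 (0.991 to 0.995) and for Smad7 Usp17la, Tdrp and Ceacam20 (0.993 to 0.994). For Bmp8a they were Zfp809, Hoxa11 and Hectd3 (0.976 to 0.978) and for Bmp8b Lrrn4, Eprn and Adamts7 (0.934 to 0.964). For Id3 they were Tanc1, Robo1 and Ergic1 (0.967 to 0.983) and for Smad6 Sh3pxd2a, Aamp and Dcaf8 (0.948 to 0.964). Id1 had Gm16845, Anxa9 and Kmt5c (0.901 to 0.927) and Id2 had Prkd1, P2rx5 and Mmgt2 (0.915 to 0.95).

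In the single-cell libraries the 10 genes could be placed in cell types. Of 14179 barcodes, 5224 cells without and 6220 cells with 4OHT were kept, at median totals of 18146 and 12725.5 UMIs (unique molecular identifiers, 1 per captured transcript), and 21 barcodes occurred in both libraries. Cells were clustered without the 10 genes and the 57 other pathway genes, and clusters were named from marker lists. Clusters 1 (led by Gkn1, Gkn2 and Tff1), 2 (Car4, Pitx1) and 5 (Amn, Cubn) were endoderm-like, clusters 3 (Cdx1, Mylpf, Tdgf1) and 4 (Calcoco2) epiblast-like, and smaller clusters trophectoderm-like, two-cell-like and fibroblast-like. A further cluster of 65 -4OHT cells and 1 +4OHT cell stayed unnamed. Both epiblast-like clusters, 3663 cells in all, held -4OHT cells alone. Of the 12 endoderm markers, 10 were enriched in clusters 1 and 2 and 3 in cluster 5. Different clusters held most endoderm-like cells of the 2 libraries, cluster 5 with 700 of 1325 cells in -4OHT and cluster 1 with 3744 of 5987 cells in +4OHT.

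The targeted gene was looked at first. Over all kept cells Pou5f1 stood at 40.3 CPM (here summed UMIs over those of all genes in the same cells, with no TMM factor) in -4OHT and 2.48 CPM in +4OHT. Within the endoderm-like class it stood at 15.2 and 1.75 CPM, most of it in cluster 5, at 22.0 CPM, against 1.90 and 3.57 CPM in clusters 1 and 2 of the same library. Which part of the gene 4OHT removes is not given in the sources used here, and a 3′ tag outside that part would not show the deletion. With 1 library per condition there is no test, a 2-fold change with at least 5 CPM in 1 library was used to name genes, and all intervals cover counting error only.

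Without 4OHT, Bmp2 was found mostly in endoderm-like cells and Bmp4 and Bmp7 mostly in epiblast-like cells. Bmp2 stood at 23.2 CPM in endoderm-like cells (95% Poisson interval from 515 UMIs, 21.2 to 25.3) and at 0.365 CPM in epiblast-like cells. Bmp4 stood at 5.59 and 67.7 CPM and Bmp7 at 0.451 and 5.67 CPM. After thinning to 5000 UMIs per cell, 11.7% of endoderm-like cells (exact 95% interval 10.0% to 13.6%) and 0.273% of epiblast-like cells had a Bmp2 UMI, at median depths of 14961 and 19084 UMIs before thinning, and the latter share is taken as background. Bmp4 UMIs were found in 23.7% of epiblast-like cells (22.4% to 25.2%) and in 2.12% of endoderm-like cells (1.41% to 3.05%). Without thinning, a Bmp2 UMI was found in 26.0% of endoderm-like and 0.601% of epiblast-like cells, and a Bmp4 UMI in 5.89% and 52.6%.

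The epiblast-like clusters differed, as a description of the same cells that were clustered, and Bmp4 was among the 10 genes of largest fold in cluster 3. Cluster 3 held 85.7 CPM of Bmp4 and cluster 4 held 37.5 CPM, and Smad7 stood at 222 and 133 CPM, Id1 at 60.6 and 39.4 CPM and Id2 at 21.8 and 7.27 CPM, all higher in cluster 3. Id3 was closer, at 47.6 and 41.5 CPM, and Bmp7 stood at 5.86 and 5.35 CPM. The two-cell-like cells of the -4OHT library (121 cells) held 19.6 CPM of Bmp4 and 55.9 CPM of Id3.

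Within the -4OHT library, cluster 5 held most of the Pou5f1 UMIs of the endoderm-like class, and its values are set beside those of clusters 1 and 2 together. These clusters were drawn from the same cells, so that their differences are a description. Bmp8a stood at 7.68 CPM in cluster 5 and 1.75 CPM in clusters 1 and 2 together (ratio 4.38, interval 2.50 to 8.28). Id3 stood at 9.29 and 15.5 CPM (ratio 0.599, interval 0.465 to 0.772) and Smad6 at 0.563 and 1.5 CPM (ratio 0.375, interval 0.133 to 0.998, from 8 and 12 UMIs). Smad7 stood at 59.8 and 48.1 CPM (ratio 1.24, interval 1.10 to 1.41). Bmp2 stood at 15.9 and 36.2 CPM (ratio 0.440, interval 0.368 to 0.525) and Id1 at 29.9 and 54.6 CPM (ratio 0.548, interval 0.479 to 0.628), both lower in cluster 5. Id2 stood at 22.5 and 2.75 CPM (ratio 8.16, interval 5.29 to 13.2) and Bmp4 at 7.60 and 2.00 CPM (ratio 3.80, interval 2.24 to 6.88), both higher in cluster 5. In the sorted libraries, mean levels in DP and Pdgfra+ were 7.66 and 2.57 CPM for Bmp8a, 7.78 and 24.5 CPM for Id3, 2.15 and 5.88 CPM for Smad6 and 76.04 and 43.2 CPM for Smad7. Of these, Smad6 did not pass the test between DP and Pdgfra+ (edgeR adjusted p = 0.190). For Bmp2 the mean levels were 47.03 and 44.8 CPM, for Id1 16.9 and 23.1 CPM, for Id2 9.67 and 6.56 CPM and for Bmp4 1.92 and 0.490 CPM, and none of these passed it either. Bmp7 and Bmp8b had 10 and 16 UMIs in cluster 5 and no UMI in clusters 1 and 2. The 10 epiblast markers summed to 3449 CPM in cluster 5, against 683 and 928 CPM in clusters 1 and 2, and the 12 endoderm markers to 12680.5 CPM, against 21478.5 and 18063 CPM. No doublet caller was run, and the part of these markers in the differences was not tested.

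**Figure D3:**
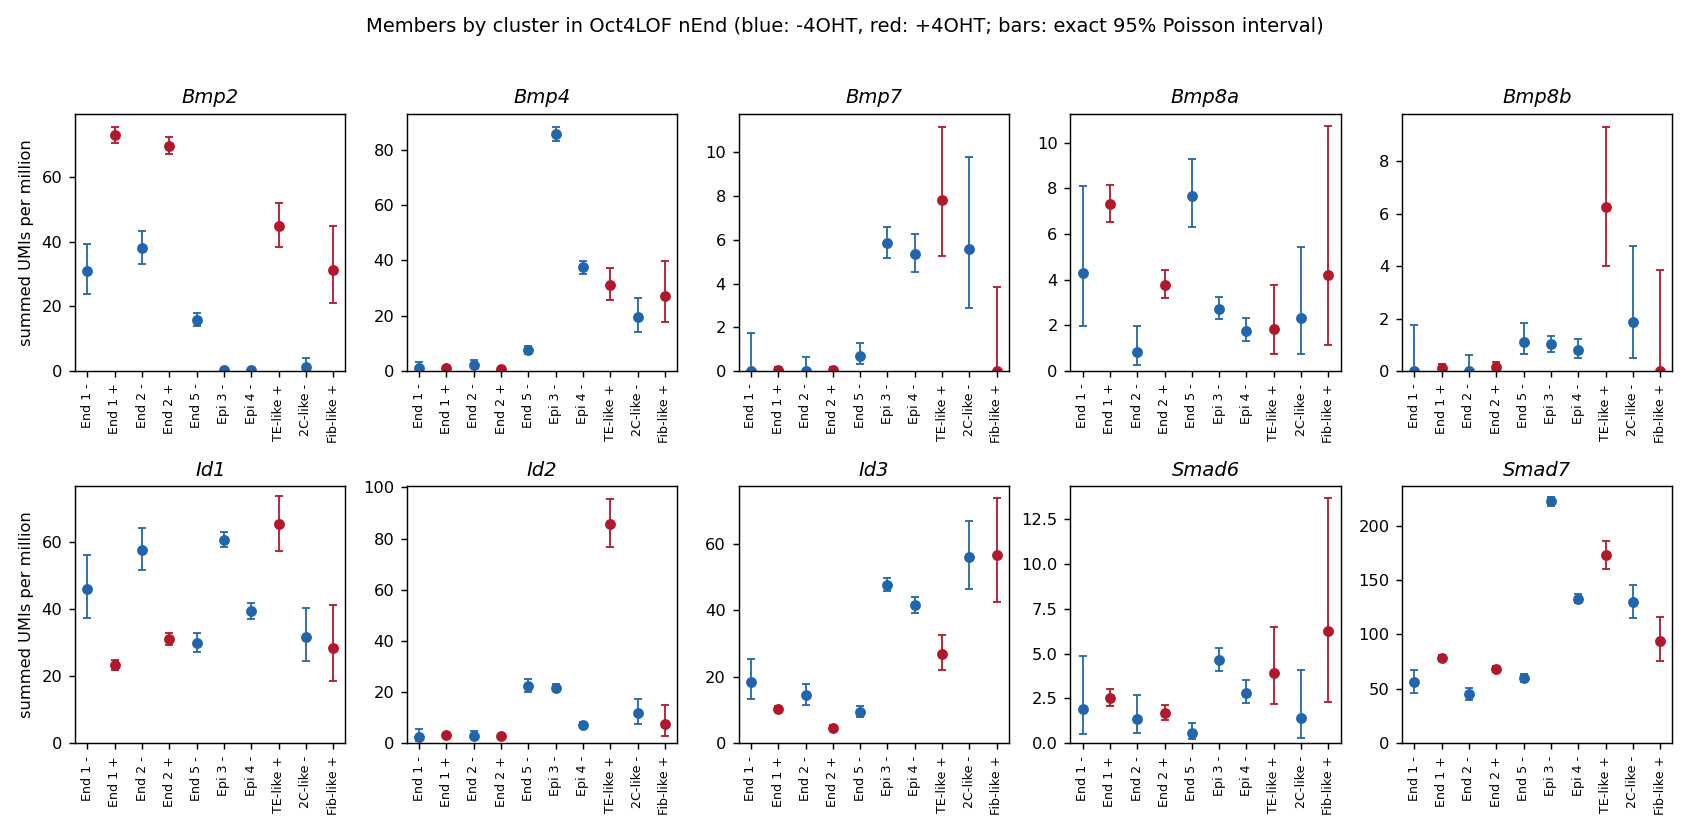
CPM (from summed UMIs) of each of the 10 genes by cluster and library, with linear axes from 0 that differ between panels and exact 95% Poisson intervals (End: endoderm-like clusters 1, 2 and 5, Epi: epiblast-like clusters 3 and 4, TE-like: trophectoderm-like, 2C-like: two-cell-like, Fib-like: fibroblast-like, minus and plus: without and with 4OHT). The 30 trophectoderm-like and 20 fibroblast-like -4OHT cells, the unnamed cluster and groups of 4 cells are left out. Bmp2 is near 0 in the epiblast-like clusters, Bmp4 and Smad7 are highest in cluster 3, and Id2 is highest in the trophectoderm-like cells.

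Small classes stood out for single genes. The trophectoderm-like cells of the +4OHT library (197 cells) held 85.9 CPM of Id2, 6.26 CPM of Bmp8b (24 UMIs) and 7.83 CPM of Bmp7 (30 UMIs), against 2.91, 0.141 and 0.0470 CPM in the endoderm-like cells of that library. In the -4OHT library the class had only 30 cells, with 141 CPM of Id2. The fibroblast-like cells, 20 and 31 cells, held 141 and 56.5 CPM of Id3 in -4OHT and +4OHT and 10.6 and 27.2 CPM of Bmp4, from 6 and 26 UMIs. Both classes also held endoderm markers. In -4OHT and +4OHT these summed to 5735 and 12798.5 CPM in the fibroblast-like cells, against 3777 and 10668 CPM of fibroblast markers. In the trophectoderm-like cells they summed to 2544 and 5908 CPM, against 73.7 and 173 CPM of the 8 trophectoderm markers, of which 4 were enriched. The part of these markers in the values was not tested.

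Endoderm-like cells of the +4OHT and -4OHT libraries were then compared. Over all kept cells, with the epiblast-like cells in 1 library only, Bmp2 stood at 5.71 and 69.9 CPM and Bmp4 at 51.9 and 2.51 CPM in -4OHT and +4OHT. Within the endoderm-like class, 7 of the 10 genes had at least 5 CPM in 1 library and 3 of these passed 2-fold, Bmp2 as higher and Bmp4 and Id2 as lower in +4OHT, where 15.5% of 10149 genes passed. Bmp2 stood at 23.2 and 71.5 CPM in -4OHT and +4OHT (ratio 3.08, interval 2.82 to 3.38). Bmp4 stood at 5.59 and 0.892 CPM (ratio 0.160, interval 0.118 to 0.214) and Id2 at 15.4 and 2.91 CPM (ratio 0.189, interval 0.160 to 0.224). Id1 (38.8 and 27.1 CPM), Id3 (11.5 and 7.51 CPM), Smad7 (55.6 and 73.5 CPM) and Bmp8a (5.54 and 5.59 CPM) stayed within 2-fold. Bmp7, Bmp8b and Smad6 were below 5 CPM in both libraries, at 10 and 4 UMIs, 16 and 12 UMIs and 20 and 180 UMIs.

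Within cluster 1, where 3.62% of genes passed 2-fold, Bmp2 alone of 5 genes with at least 5 CPM passed (30.9 and 73.1 CPM, ratio 2.37, interval 1.85 to 3.08). Within cluster 2, where 3.56% passed, Id3 alone of 4 passed (14.4 and 4.67 CPM, ratio 0.323, interval 0.249 to 0.422), and Bmp2 stood at 38.1 and 69.7 CPM (ratio 1.83, interval 1.60 to 2.11). Id2 was low in both clusters of both libraries, at 2.37 and 3.11 CPM in cluster 1 and 2.89 and 2.68 CPM in cluster 2. Its 22.5 CPM in cluster 5 came from 700 cells of -4OHT, and +4OHT had 4 cells there. Id1 was lower in +4OHT in both clusters, at ratios of 0.506 (0.411 to 0.630) and 0.540 (0.478 to 0.610), and Id3 in cluster 1 had a ratio of 0.550 (0.396 to 0.783). Smad7 had ratios of 1.40 (1.16 to 1.69) and 1.51 (1.33 to 1.72). Within these clusters Pou5f1 stood at 1.90 and 2.32 CPM in cluster 1 and 3.57 and 1.12 CPM in cluster 2, in -4OHT and +4OHT.

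**Figure D4:**
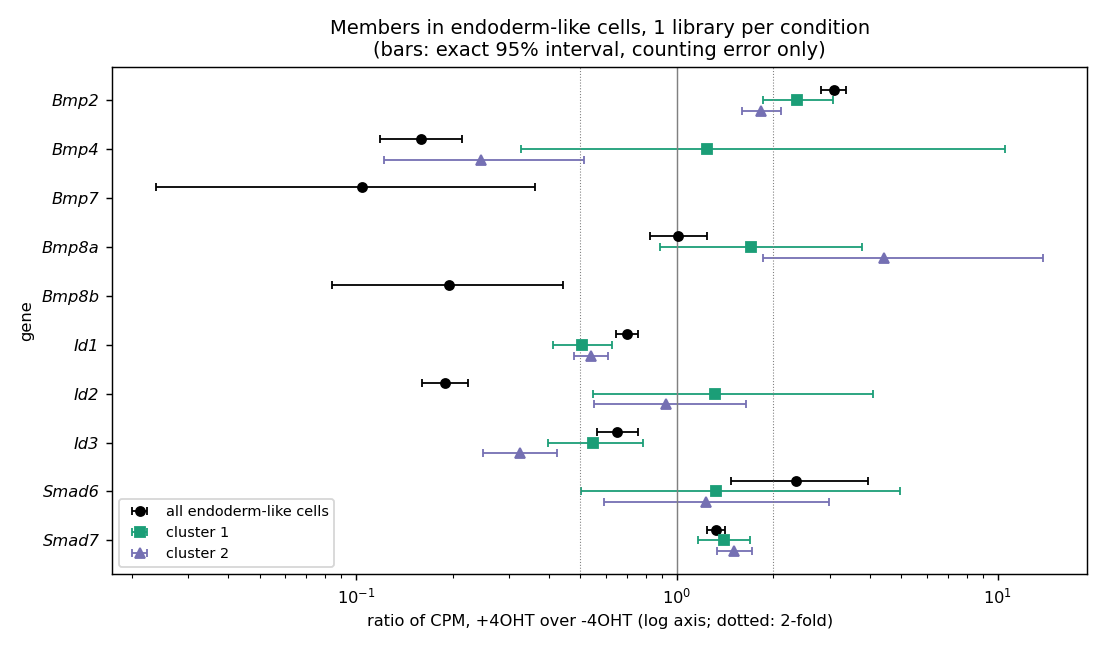
Ratio of CPM in +4OHT over -4OHT for each of the 10 genes (log axis) in all endoderm-like cells, in cluster 1 and in cluster 2, with exact 95% intervals for counting error and dotted lines at 2-fold. Genes without a UMI in 1 of the libraries have no symbol, Bmp2 lies above 1 and Id1 and Id3 below 1 in all 3 sets of cells, and Id2 is below 1 by over 2-fold only in the set that holds cluster 5.

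After thinning to 5000 UMIs, which left out 3 and 36 endoderm-like cells, a Bmp2 UMI was found in 11.7% of -4OHT and 28.0% of +4OHT cells, an Id1 UMI in 16.9% and 11.2%, an Id3 UMI in 5.82% and 3.48% and a Smad7 UMI in 23.1% and 28.9%. For Bmp8a the shares were 2.19% (1.47% to 3.14%) and 3.21% (2.78% to 3.69%). Without thinning the shares in -4OHT and +4OHT were 26.0% and 52.4% for Bmp2, 39.5% and 25.3% for Id1, 11.5% and 7.35% for Id3, 50.4% and 54.9% for Smad7 and 8.38% and 7.43% for Bmp8a, whose order turned.

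Of the 57 other pathway genes, over a class whose cells lie mostly in different clusters in the 2 libraries, 29 had at least 5 CPM in 1 of the endoderm-like groups and 10 of these passed 2-fold, 7 as higher and 3 as lower in +4OHT. The secreted antagonist Nog stood at 5.45 and 44.3 CPM in -4OHT and +4OHT (ratio 8.13, interval 6.78 to 9.82), Bmper at 19.6 and 51.9 CPM and Fst at 237 and 490 CPM. The transducer Smad1 stood at 19.5 and 43.0 CPM, the intracellular inhibitors Smurf1 at 19.7 and 51.3 CPM and Ski at 44.9 and 90.03 CPM, and the target Msx2 at 12.03 and 24.2 CPM. Lower in +4OHT were the ligand Bmp6, at 8.70 and 2.49 CPM, the co-receptor Eng, at 16.6 and 3.40 CPM, and Gdf3, with 191 UMIs in -4OHT and 0 in +4OHT, at least 244-fold lower with a floor of 3 UMIs. These 10 of 29 are 34.5%, where 15.5% of all genes passed. Within cluster 1, 2 of 27 passed (Nog and Msx2, 7.41%, against 3.62% of all genes), and within cluster 2, 2 of 26 (Nog and Bmper, 7.69%, against 3.56%), all as higher. Nog then had ratios of 2.68 (1.91 to 3.89) and 3.18 (2.56 to 4.01). Fst, higher over the class, was lower in +4OHT within both clusters, at 701 and 538 CPM in cluster 1 (ratio 0.768, interval 0.728 to 0.810) and 620 and 440.1 CPM in cluster 2 (ratio 0.71, interval 0.685 to 0.736). Bmp6 and Eng were below 5 CPM in both clusters of both libraries, at ratios of 1.88 (0.719 to 6.98) and 1.12 (0.511 to 2.93) for Bmp6 and 0.897 (0.444 to 2.12) and 0.742 (0.489 to 1.17) for Eng. Gdf3 had 2 and 12 UMIs in clusters 1 and 2 of -4OHT. The 10 epiblast markers summed to 2518 CPM in -4OHT and 670 CPM in +4OHT over the class, and their part in these differences was not tested.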

How the data were processed

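The deposited bulk table held raw read counts per gene symbol for 9 libraries (stranded single-end libraries, mm10 in the submitters' processing notes). No source used here gives the aligner, counter, annotation or use of strand. The authors made the single-cell UMI counts with Cell Ranger. Blank lines of the bulk table (35) named no gene and were left out. Samples were grouped by the labels.

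The 10 genes and the gene lists were chosen with earlier results of these data known. Named genes were the 10, up to 4 called genes of each pathway role by size of change, the 3 closest genes to each of the 10, and pathway genes past 2-fold in the single-cell libraries.

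Counts were fitted over all 9 libraries with edgeR 4.0.16 in R 4.3.3 (quasi-likelihood test, TMM scaling, filterByExpr, group as the only term), with p-values adjusted by Benjamini-Hochberg over all genes tested. DESeq2 1.42.0, upper quartile scaling, other filters, a replicate block and each library left out were alternatives. Same-numbered DP and Pdgfra+ libraries deviated together from their group means (r across genes 0.271, 0.477 and 0.321), so the replicate numbers were taken to pair these 2 groups.

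Cells with at least 2000 genes and under 10% mitochondrial UMIs were kept and clustered (Leiden, leidenalg 0.10.2, resolution 0.4) on 2000 variable genes without the 10 genes and the 57 pathway genes. UMIs were summed per class, with exact 95% Poisson and binomial intervals (scipy 1.17.1), and no doublet caller was run. The fits and the intervals were tested on simulated data.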

Additional observations from a re-analysis of the deposited data

How the results depend on the processing

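In DP against Pdgfra+, 3 of the 10 genes were called (6.87% of all genes), and 4 by DESeq2 (13.2% of all genes). Without a filter on low counts 5 were called (6.7% of all genes), which added Bmp8b (edgeR adjusted p = 0.00797) and Bmp4 (0.0453). With each library left out 0 to 3 were called (0.412% to 9.3% of all genes). In DP against Oct4+ 8 were called (56.2% of all genes), and 5 with a mean of at least 5 CPM required (59.1%), where fewer genes were tested. With each library left out 6 to 8 were called there (48.2% to 55.1% of all genes). In Oct4+ against Pdgfra+ the count was 4 with each library left out (56.2% to 63.3% of all genes). Upper quartile scaling moved the median of all genes to -0.26 in DP against Oct4+ and 0.26 in Oct4+ against Pdgfra+, and turned the uncalled log2 differences of Bmp8a (0.026) and Id1 (0.0337) in the latter. Its calls split into 3270 higher and 5199 lower in DP against Oct4+ (4016 and 3952 with TMM) and 5616 and 3591 in Oct4+ against Pdgfra+ (4506 and 4464). It also ended the call of Bmp8b in DP against Oct4+ (edgeR adjusted p = 0.0624).

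With each library left out, signs turned only for uncalled values, whose log2 ranges were -0.10 to 0.34 for Bmp2 in DP against Pdgfra+, -0.65 to 0.21 for Id1 and -0.69 to 0.0908 for Id2 in DP against Oct4+, and -0.43 to 0.0874 for Bmp8a, -0.24 to 0.61 for Bmp8b, -0.64 to 0.00377 for Id1, -0.17 to 0.40 for Id3 and -0.16 to 1.24 for Smad6 in Oct4+ against Pdgfra+. Over all genes, 975 were called in DP against Pdgfra+, 1872 by DESeq2, 1892 without a filter, 2536 with the replicate block over 6 libraries, 552 with a log2 change above 1.5 also required, and 61 to 1382 with each library left out. That added fold rule gave 3933 of 7968 and 4535 of 8970 calls in the comparisons with Oct4+.

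With the replicate block, 2 of the 10 were called in DP against Pdgfra+ over 9 libraries (8.21% of all genes) and 4 over 6 (20.2% of all genes). The counts of 8 (58.1% and 51.1% of all genes) and 4 (64.3% and 58.5%) in the other comparisons did not move. Numbers there were not taken as pairs (r = -0.0728 to 0.152).

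In endoderm-like cells 3 genes passed 2-fold, and 1 did with at least 20 CPM required (Bmp2). Without the 5% of cells with most UMIs 2 passed, and Bmp4 (log2 ratio -2.25) no longer did. The cluster alternatives were chosen after seeing the data. In cluster 1 only 1 gene passed. The log2 ratios of Bmp4 (0.31) and Id2 (0.39) were positive there, from 2 and 5 UMIs in -4OHT. The intervals of these ratios span 1 (0.327 to 10.5 and 0.548 to 4.10), so their direction is not settled. In cluster 2 only 1 passed, and Bmp4, below 5 CPM in both libraries, had a ratio of 0.245 (interval 0.122 to 0.513, 14 and 24 UMIs). In clusters 1 and 2 without cluster 5 the log2 ratio of Id2 was 0.0756. Of the other pathway genes 10 passed over the class, and 2 in cluster 1 and 2 in cluster 2. The causes of these changes were not tested.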
